A study of Mus musculus with 6 samples.

Results

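The regions described here are the places in mouse macrophages where ChIP-seq, the sequencing of DNA pulled down with an antibody to a chromatin protein, called C/EBPβ, and the question is what the same places look like in adipocytes. All regions of the macrophage C/EBPβ list on the 19 autosomes were taken, 24024 of 24421. They were set against the adipocyte PPARγ list that joins 3 datasets and against the adipocyte H3K9Ace list, with an overlap of at least 1 bp counted as shared. The choice used no measured value of the regions.

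C/EBPβ is a leucine-zipper transcription factor that acts early in fat cell differentiation and is also induced in activated macrophages. PPARγ, a nuclear receptor, is required for fat cells to form, and in adipocytes many of its binding sites lie beside C/EBP sites. PU.1 is an ETS-family factor that sets up enhancers in myeloid and B cells, and it was mapped here in macrophages alone. H3K9Ace, acetylation of histone H3 at lysine 9, marks active promoters and enhancers.

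The adipocyte libraries of the series came from differentiated 3T3-L1 cells, a fibroblast-derived mouse line. They were ChIPed from nuclear lysates with antibodies to PPARγ and to H3K9Ace. The labels do not state which 3 datasets the combined PPARγ list joins, so this description may not cover all of them. The macrophage lists of C/EBPβ, PU.1, H3K9Ace and PPARγ came from whole-cell lysates of peritoneal cells of male C57BL/6 mice. These cells were drawn out by injecting 1 ml of 3% thioglycollate, washed out 3 days later and kept for 24 h of adherence, with at least 4 animals pooled per sequencing run. The labels name no ligand and no genetic change. Each of the 6 libraries is the only one of its group, so nothing here has a replicate: the tests run over regions and speak of these lists alone. The cell types differ in lysate, source and library, which cannot be told apart from cell type.

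On the autosomes the C/EBPβ regions had a median width of 275 bp and covered 7.34 Mb. The combined adipocyte PPARγ list held 12165 autosomal regions over 10.7 Mb, with a median width of 899 bp, and the adipocyte H3K9Ace list 50496 regions over 98.7 Mb. The files give no read totals, so the depth is unknown. The 95% intervals given with shares are Wilson intervals for counting error only, with neighbouring regions taken as independent.

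Adipocyte PPARγ was called at 1889 of the 24024 macrophage C/EBPβ regions, 7.86% (95% interval 7.53 to 8.21). Over all macrophage regions of C/EBPβ or PU.1 the share was 4.90%. Moving the whole C/EBPβ list around each chromosome by a random distance, 1000 times, left a mean of 0.591% and at most 0.753% (1-sided permutation test, p = 0.001, the smallest the shifts can give). With the final adipocyte list, which is shorter and whose folds are all 5 or more, PPARγ was called at 379 C/EBPβ regions, 1.58% (1.43 to 1.74), against 0.0651% after shifting (permutation p = 0.001).

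Adipocyte H3K9Ace was far more common, at 8365 C/EBPβ regions or 34.8% (34.2 to 35.4). Over all macrophage C/EBPβ or PU.1 regions this share was 30.2%. Shifts gave a mean of 4.81% and at most 5.70% (permutation p = 0.001). Shifts limited to 20 to 200 kb, which leave each region near its own gene neighbourhood, gave more overlap, 1.21% for PPARγ and 11% for H3K9Ace, and the C/EBPβ regions still exceeded all of them (permutation p = 0.001 for each).

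Moved by fixed distances, the C/EBPβ list lost most of its PPARγ overlap within 1 kb, and lost acetylation more slowly. PPARγ overlap was 7.86% in place, 6.02% at 0.5 kb, 2.86% at 1 kb and 1.64% at 10 kb. H3K9Ace overlap was 34.8% in place, 29.2% at 1 kb, 23.3% at 2 kb and 14.9% at 10 kb. At 200 kb both were still above the chromosome-wide shifts, at 1.07% and 9.71%. Combined PPARγ regions had a median width of 899 bp, and adipocyte acetylated regions that hold C/EBPβ one of 2800 bp. How much of the difference in loss goes with these widths was not tested. Where a C/EBPβ region overlapped a PPARγ region, the centres lay a median of 124.5 bp apart (middle 50% from 51.5 to 269 bp). The overlap itself bounds this distance.

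**Figure D1:**
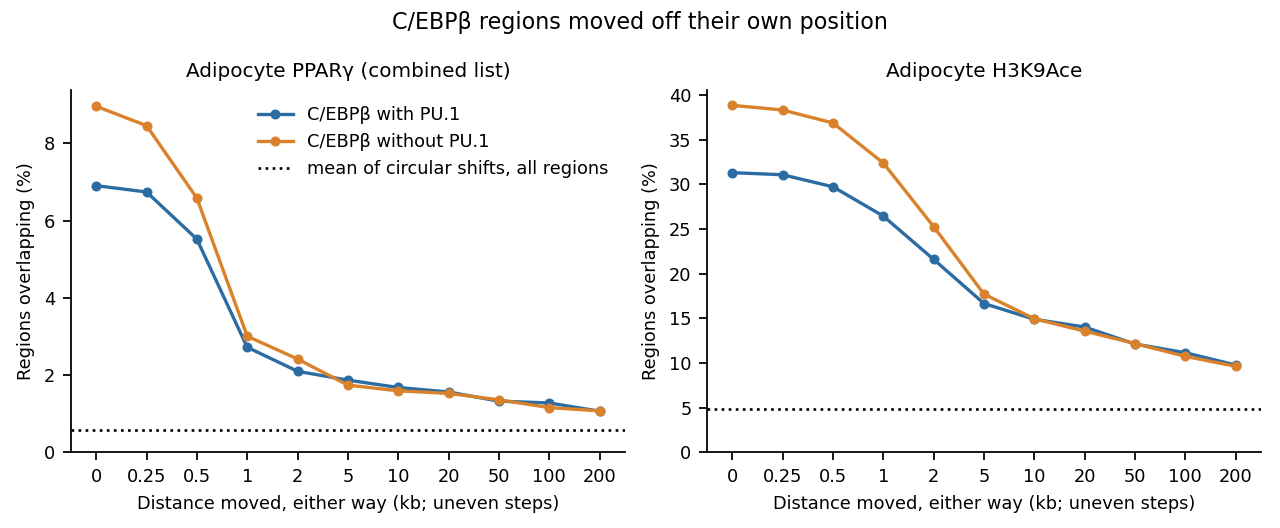
Share of macrophage C/EBPβ regions that overlap adipocyte PPARγ (left) or adipocyte H3K9Ace (right) after moving them either way by the distance on the x axis, in kb and in uneven steps; lines are regions with and without PU.1, and the dotted line is the mean of the circular shifts over all regions. PPARγ overlap drops to 2.72% with PU.1 and 3.01% without it at 1 kb, while H3K9Ace overlap is still 26.5% and 32.4% there.

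In adipocytes, both marks met at the same C/EBPβ regions. PPARγ lay at 1498 of the 8365 regions acetylated in adipocytes, 17.9% (17.1 to 18.7), and at 391 of the 15659 others, 2.50% (2.26 to 2.75). The odds ratio was 8.52 (exact 95% interval 7.59 to 9.58), and the Fisher's exact p lay below what double precision can hold. Of the 1889 C/EBPβ regions with adipocyte PPARγ, 391 thus had no called acetylation in adipocytes. Counted as combined PPARγ regions, 1387 of the 1725 with macrophage C/EBPβ were acetylated in adipocytes. Over all 12165 combined PPARγ regions, those with C/EBPβ included, it was 8204, or 67.4%. Adipocyte acetylation was thus common in this list as a whole, and more frequent at its regions with C/EBPβ. C/EBPβ lay at 16.9% of the acetylated combined regions (16.1 to 17.7) and 8.53% of the others (7.70 to 9.44), with width not adjusted for. Outside adipocyte acetylation, PPARγ still exceeded the shifted 0.575% (permutation p = 0.001).

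C/EBPβ regions met adipocyte PPARγ more often than the remaining PU.1 regions of macrophages did. The 32405 autosomal PU.1 regions that overlap no C/EBPβ region carried it in 876 cases, 2.70% (2.53 to 2.89), and the odds were 3.07 times higher at C/EBPβ regions (95% interval 2.83 to 3.34, adjusted p = 1.10e-171 by a Fisher's exact test over 12 odds ratios). This odds ratio was 6.4 with the final adipocyte list. C/EBPβ regions were somewhat wider, with a median of 275 bp against 239 bp over all PU.1 regions, and within quartiles of width the odds ratio was 2.68. It held for C/EBPβ regions with PU.1, at 6.91% and an odds ratio of 2.67 over PU.1 without C/EBPβ (2.42 to 2.94), and for C/EBPβ regions without PU.1, at 8.96% and 3.54 (3.22 to 3.90). Fisher's exact tests gave adjusted p-values of 9.86e-87 and 6.27e-150 over the 19 contrasts added after the files were read. Both were higher with the final adipocyte list, at 5.19 and 7.80, and lower within quartiles of width, at 2.12 and 3.36. Without regions bound by PPARγ in macrophages they were 2.14 and 3.35.

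For acetylation the gap was smaller. Adipocyte H3K9Ace lay at 34.8% of C/EBPβ regions and 26.8% of the PU.1 regions without C/EBPβ (26.3 to 27.3), an odds ratio of 1.46 (95% interval 1.41 to 1.52, adjusted p = 2.15e-93 by a Fisher's exact test). Within quartiles of width this odds ratio was 1.32. For C/EBPβ regions with PU.1 it was 1.25, and 1.06 within quartiles of width. For C/EBPβ regions without PU.1 these values were 1.74 and 1.65. The macrophage mark was uneven between these lists: 51.0% of C/EBPβ regions and 34.8% of PU.1 regions without C/EBPβ were acetylated in macrophages. Among macrophage-acetylated regions the direction turned. There 53.9% of C/EBPβ regions and 56.8% of the PU.1 regions without C/EBPβ were acetylated in adipocytes, an odds ratio of 0.888 (95% interval 0.843 to 0.936, adjusted p = 8.51e-06 by a Fisher's exact test). After thinning to regions starting at least 10 kb apart that ratio was 0.946, with an adjusted p of 0.125 (Fisher's exact test). Among regions without macrophage acetylation the shares were 15.0% and 10.8% (odds ratio 1.46, 1.37 to 1.57, adjusted p = 2.23e-28, Fisher's exact test). The common odds ratio within both strata of macrophage acetylation was 1.07 (1.02 to 1.11, Mantel-Haenszel chi-square test, p = 0.00173).

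The PPARγ gap over PU.1 regions without C/EBPβ was present in both strata. The macrophage-acetylated shares were 9.67% at C/EBPβ and 4.84% at PU.1 without C/EBPβ, an odds ratio of 2.11 (1.90 to 2.34). Without macrophage acetylation they were 5.98% and 1.57%, an odds ratio of 4.00 (3.5 to 4.58). Within adipocyte-acetylated regions alone, 17.9% of C/EBPβ regions and 8.30% of PU.1 regions without C/EBPβ carried PPARγ (odds ratio 2.41, 2.19 to 2.65). Fisher's exact tests gave adjusted p-values of 1.83e-46, 6.24e-101 and 4.04e-78. The final adipocyte list gave 4.17, 8.99 and 4.79 for the same contrasts, and quartiles of width gave 1.93, 3.73 and 2.23.

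**Figure D2:**
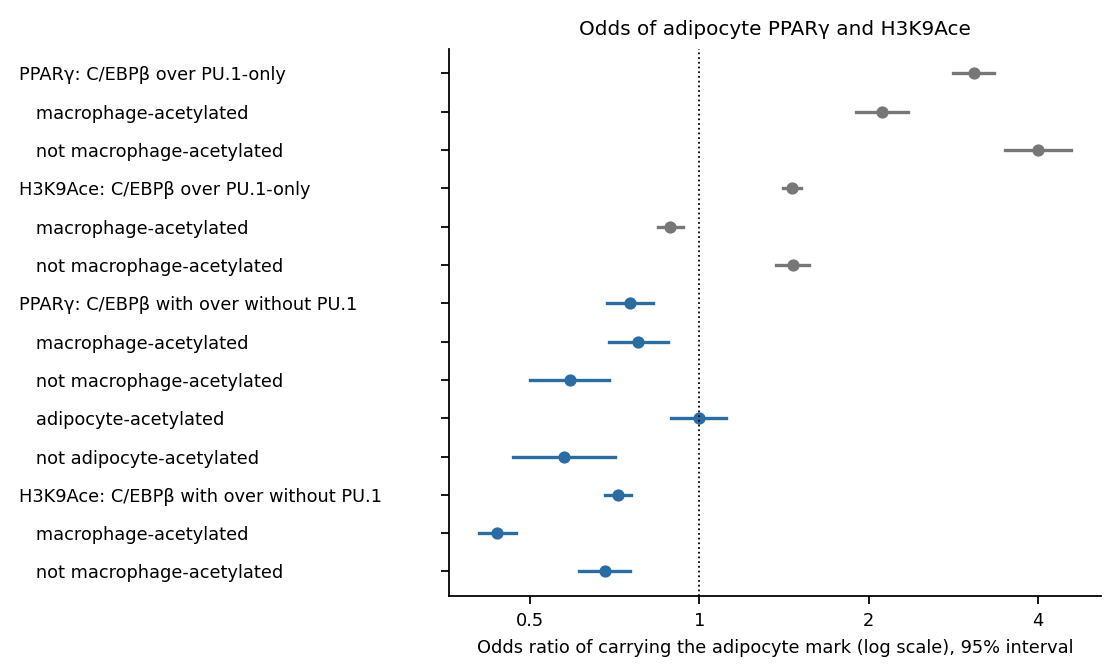
Odds ratios of carrying adipocyte PPARγ or adipocyte H3K9Ace on a log axis, points with exact 95% intervals; grey compares C/EBPβ regions with PU.1 regions that lack C/EBPβ, blue compares C/EBPβ regions with and without PU.1. The PU.1 contrast for PPARγ sits at 0.997 among adipocyte-acetylated regions and at 0.575 among the others.

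PU.1 overlapped 12856 of the C/EBPβ regions, 53.5%, and these carried both adipocyte marks less often than the rest. Adipocyte PPARγ lay at 6.91% of C/EBPβ regions with PU.1 (888 of 12856, 6.48 to 7.36) and at 8.96% of those without (1001 of 11168, 8.45 to 9.51). The odds ratio was 0.754 (95% interval 0.685 to 0.829, adjusted p = 4.54e-09 by a Fisher's exact test). For adipocyte H3K9Ace the shares were 31.3% with PU.1 (30.5 to 32.1) and 38.9% without (38 to 39.8), an odds ratio of 0.718 (95% interval 0.680 to 0.757, adjusted p = 5.23e-34 by a Fisher's exact test).

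Regions with PU.1 were wider, with a median of 308 bp against 243.5 bp without PU.1, and wider regions met adipocyte PPARγ more often, from 5.76% in the lowest quartile of width to 11.4% in the highest. Within quartiles of width the PU.1 odds ratios were 0.611 for PPARγ and 0.633 for H3K9Ace. C/EBPβ regions with PU.1 had the lower share of each mark on each of the 19 autosomes. The share with PPARγ over all C/EBPβ regions ran from 5.09% on chromosome 9 to 12.2% on chromosome 6 (10.6 to 14), the chromosome with the most adipocyte PPARγ regions, 1163. Chromosome 6 also had the widest gap in percentage points, 9.08% with PU.1 and 15.7% without. Without chromosome 6 the PU.1 odds ratio for PPARγ was 0.779.

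**Figure D3:**
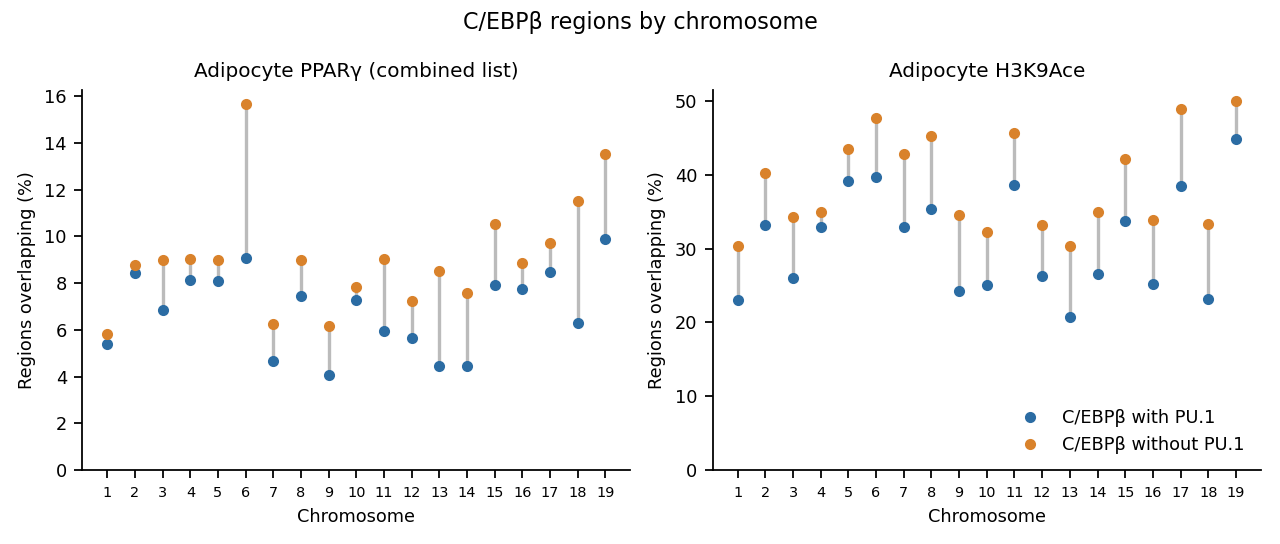
Share of C/EBPβ regions with PU.1 (blue) and without PU.1 (orange) that overlap adipocyte PPARγ (left) or adipocyte H3K9Ace (right), for each of the 19 autosomes on the x axis; a grey line joins both values of a chromosome. The orange point lies above the blue point on every autosome in both panels, and the highest PPARγ share is 15.7% on chromosome 6 without PU.1 and 9.88% on chromosome 19 with PU.1.

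Macrophage acetylation also separated the C/EBPβ regions. Regions acetylated in macrophages carried adipocyte PPARγ in 9.67% of cases (1185 of 12250, 9.16 to 10.2), and the others in 5.98% (704 of 11774, 5.57 to 6.42), an odds ratio of 1.68 (95% interval 1.53 to 1.86, adjusted p = 1.98e-26 by a Fisher's exact test). With the final adipocyte list this ratio was 1.15 and missed the threshold (Fisher's exact test, adjusted p = 0.213). Split by adipocyte acetylation, the shares ran the other way. Among adipocyte-acetylated regions, PPARγ lay at 16.1% of those also acetylated in macrophages (15.2 to 17.0) and 24.7% of those not (22.8 to 26.8). Without adipocyte acetylation these shares were 2.19% (1.84 to 2.61) and 2.67% (2.37 to 3.00), whose intervals overlap. The macrophage contrast within these strata was not tested. Adipocyte H3K9Ace lay at 53.9% of the macrophage-acetylated (53.0 to 54.8) and 15.0% of the other C/EBPβ regions (14.4 to 15.7), an odds ratio of 6.62 (6.22 to 7.04), and the exact p again lay below double precision. The files do not mark which regions are promoters.

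Combining both splits gave 4 classes, and in each of them both adipocyte marks exceeded their shifts (permutation p = 0.001). PPARγ lay at 8.78% of the 7290 regions with PU.1 and macrophage H3K9Ace, and at 11% of the 4960 regions acetylated in macrophages without PU.1. Among regions lacking macrophage H3K9Ace it lay at 4.46% of the 5566 with PU.1 and at 7.35% of the 6208 with no PU.1. The shifted means of all 4 classes lay between 0.557% and 0.627%.

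The PU.1 contrast for PPARγ was thus present in both acetylation strata, with odds ratios of 0.780 in macrophage-acetylated regions (95% interval 0.690 to 0.881, adjusted p = 6.35e-05 by a Fisher's exact test) and 0.588 in the others (0.50 to 0.691, adjusted p = 4.04e-11). In the acetylated stratum the final adipocyte list gave 0.776 with an adjusted p of 0.0886 (Fisher's exact test). For adipocyte H3K9Ace the contrast was widest inside macrophage-acetylated regions: 45.7% of those with PU.1 (44.6 to 46.9) and 65.8% of those without (64.5 to 67.1) were acetylated in adipocytes, an odds ratio of 0.438 (95% interval 0.406 to 0.472, adjusted p = 5.88e-107 by a Fisher's exact test). Outside macrophage acetylation the shares were 12.4% with PU.1 and 17.3% without (0.679, 0.611 to 0.753, adjusted p = 1.96e-13, Fisher's exact test).

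**Figure D4:**
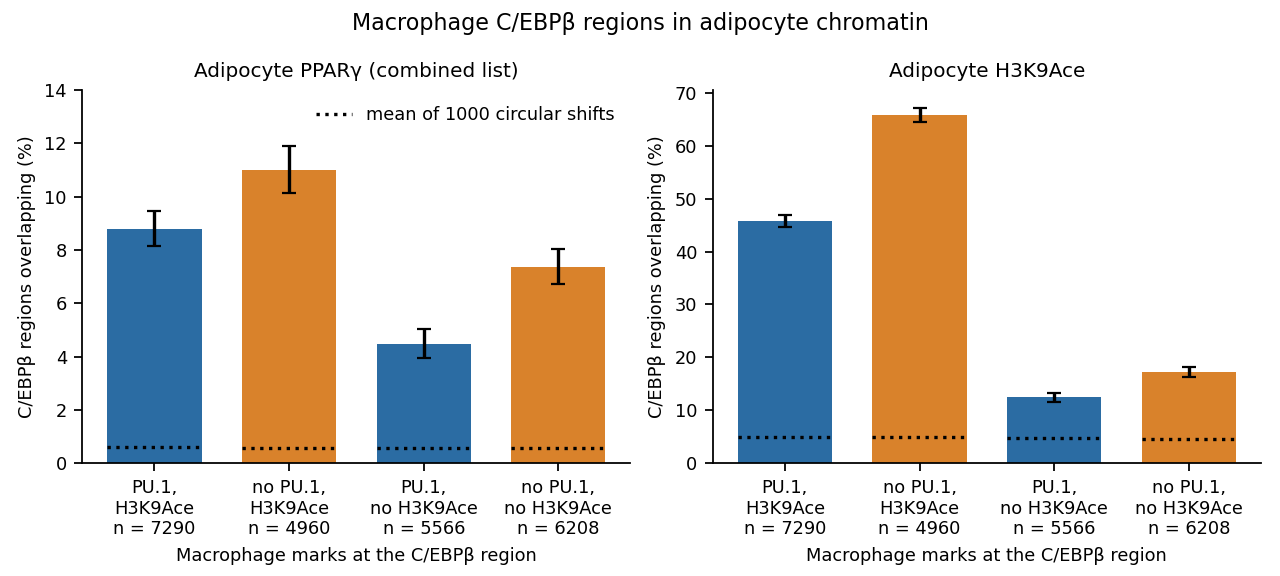
Share of macrophage C/EBPβ regions overlapping adipocyte PPARγ (left) or adipocyte H3K9Ace (right) in the 4 classes of PU.1 and macrophage H3K9Ace; bars are shares with 95% Wilson intervals, n is the number of regions and dotted lines are the means of 1000 circular shifts. Regions acetylated in macrophages without PU.1 are highest in both panels, at 11% and 65.8%.

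The PU.1 contrast for PPARγ differed between regions with and without adipocyte acetylation (Breslow-Day chi-square test, adjusted p = 4.82e-06). Of the C/EBPβ regions acetylated in adipocytes, 17.88% of those with PU.1 (720 of 4026) and 17.93% of those without (778 of 4339) carried PPARγ. The odds ratio of 0.997 had an interval of 0.890 to 1.12 and an adjusted p of 0.977 (Fisher's exact test). It was 0.826 once regions bound by PPARγ in macrophages were left out (Fisher's exact test, adjusted p = 0.00253). Within quartiles of width it was 0.875 (Mantel-Haenszel chi-square test, adjusted p = 0.0258). Among C/EBPβ regions with no adipocyte acetylation, PPARγ lay at 1.90% with PU.1 (168 of 8830) and 3.27% without (223 of 6829), an odds ratio of 0.575 (95% interval 0.466 to 0.707, adjusted p = 1.40e-07 by a Fisher's exact test). With the final adipocyte list this last ratio was 0.297 (0.159 to 0.532). The common odds ratio within both strata of adipocyte acetylation was 0.876 (0.794 to 0.966, Mantel-Haenszel chi-square test, p = 0.00758), against 0.754 without the split.

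Dividing the C/EBPβ regions by acetylation in either cell type gave 6599 acetylated in both, 5651 in macrophages alone, 1766 in adipocytes alone and 10008 in neither. The highest PPARγ shares were at regions acetylated in adipocytes alone, 22.8% of the 692 with PU.1 and 26.0% of the 1074 without. Regions acetylated in both cell types carried it in 16.9% of cases with PU.1 and 15.3% without. Regions acetylated in macrophages alone had 1.97% with PU.1 and 2.71% without, close to the 1.85% and 3.45% of regions acetylated in neither.

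Of these 4 PU.1 contrasts, the one at regions acetylated in neither cell type passed the threshold, with an odds ratio of 0.527 (95% interval 0.403 to 0.685, adjusted p = 8.05e-07 by a Fisher's exact test). The final adipocyte list gave 0.215 (0.0866 to 0.467), from 8 of 4874 regions with PU.1 and 39 of 5134 without. The other 3 had odds ratios of 1.12 (0.983 to 1.28) in both, 0.721 (0.492 to 1.07) in macrophages alone and 0.843 (0.669 to 1.06) in adipocytes alone, with adjusted p-values of 0.0968, 0.0968 and 0.142 by Fisher's exact test. The common odds ratio within the 4 states was 0.912 (0.826 to 1.01, Mantel-Haenszel chi-square test, p = 0.0679), although the 4 ratios differed from each other (Breslow-Day chi-square test of equal odds ratios, p = 1.61e-06).

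**Figure D5:**
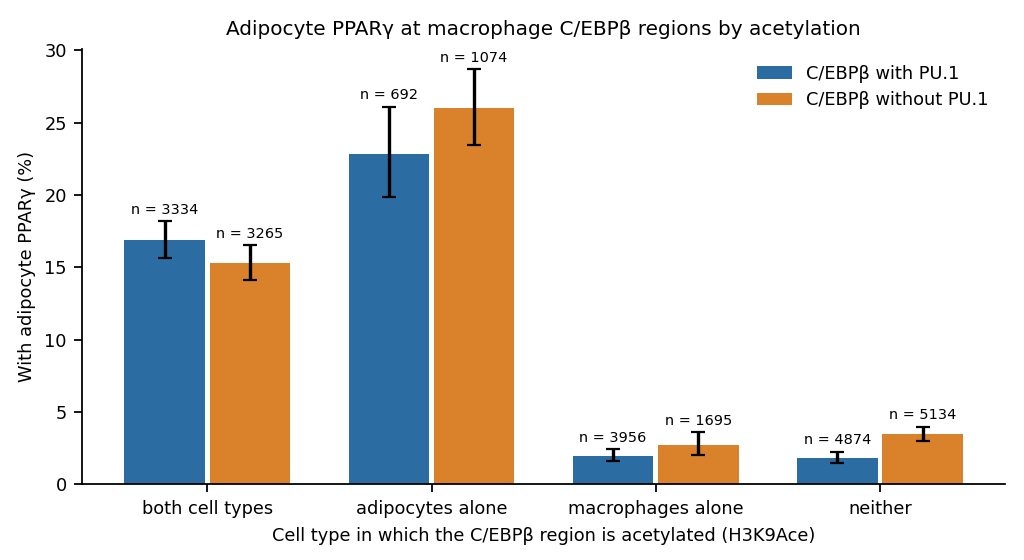
Share of macrophage C/EBPβ regions with adipocyte PPARγ by the cell type in which the region is acetylated, for regions with PU.1 (blue) and without PU.1 (orange); bars are shares with 95% Wilson intervals and n counts the regions. Shares are 15.3% or more where adipocytes are acetylated and 3.45% or less where they are not.

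C/EBPβ regions bound by PPARγ in macrophages were bound in adipocytes more often than the others, though most were not. Of the 1889 C/EBPβ regions with adipocyte PPARγ, 1492 had no macrophage PPARγ. How often macrophage PPARγ regions outside the C/EBPβ list were bound in adipocytes is not given here. The final macrophage PPARγ list, from 2 concatenated sequencing runs, overlapped 1200 of the C/EBPβ regions, and 33.1% of these (397, 30.5 to 35.8) carried adipocyte PPARγ, against 6.54% of the 22824 others, an odds ratio of 7.07 (95% interval 6.18 to 8.07, adjusted p = 6.27e-150 by a Fisher's exact test). With the final adipocyte list the ratio was 15.3. Adipocyte H3K9Ace lay at 38.8% of the same 1200 regions and at 34.6% of the others, an odds ratio of 1.2 (95% interval 1.06 to 1.35, adjusted p = 0.00454 by a Fisher's exact test), which was 1.08 within quartiles of width (Mantel-Haenszel chi-square test, adjusted p = 0.251) and 1.17 after thinning to 10 kb (Fisher's exact test, adjusted p = 0.0917). They were wider, with a median of 373 bp against 271 bp for the others.

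PU.1 lay at 903 of these 1200 regions, and adipocyte PPARγ was less frequent there, at 29.1% with PU.1 and 45.1% of the 297 without, an odds ratio of 0.50 (95% interval 0.378 to 0.661, adjusted p = 8.05e-07 by a Fisher's exact test). Among C/EBPβ regions with no macrophage PPARγ the shares were 5.23% with PU.1 and 7.98% without (odds ratio 0.637, 0.571 to 0.709, adjusted p = 1.03e-16, Fisher's exact test). The difference between the PU.1 ratios of these strata missed the threshold (ratio 0.785, Breslow-Day chi-square test, adjusted p = 0.102). With PU.1 counted within 500 bp, that ratio was 0.627 and passed the threshold (Breslow-Day chi-square test, adjusted p = 0.00348).

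Seen from the adipocyte side, macrophage C/EBPβ lay at 1725 of the 12165 combined PPARγ regions, 14.2% (13.6 to 14.8), and at 379 of the 2610 autosomal regions of the final list, 14.5% (13.2 to 15.9). Macrophage PU.1 lay at 13.1% of the combined and 9.50% of the final regions. C/EBPβ was at 16.9% of the combined PPARγ regions acetylated in adipocytes (16.1 to 17.7) and at 8.53% of those that were not (7.70 to 9.44). In the final list these shares were 15.1% (13.6 to 16.7) and 12.1% (9.51 to 15.3), whose intervals overlap. Within the final list the share with C/EBPβ did not follow the authors' fold, a value the peak caller gave each final region. Across quartiles of fold, low to high, it was 14.5%, 14.4%, 14.5% and 14.8%. In the combined list, regions also in the final list carried C/EBPβ in 16.9% of cases (15.5 to 18.4). Combined regions not in the final list carried it in 13.5% (12.8 to 14.2), with width not adjusted for.

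The C/EBPβ regions with the highest adipocyte fold were taken in each class as examples, with positions in mouse build mm8. Of the 12 regions, 11 were acetylated in adipocytes and 8 were also bound by PPARγ in macrophages. Over all 379 C/EBPβ regions that overlap the final adipocyte list, chromosome 18 included, 318 were acetylated in adipocytes. Of the same 379, 157 were bound by PPARγ in macrophages. With PU.1 and macrophage H3K9Ace they lay on chromosome 17 at 30765352 to 30765828 (authors' fold of the overlapping adipocyte PPARγ region 15.0), chromosome 6 at 82828927 to 82829567 (fold 13.2), and also on chromosome 5 at 125682953 to 125683613 (fold 12.8). With macrophage H3K9Ace and no PU.1 they lay on chromosome 2 at 163163065 to 163163336 (fold 17.9), on chromosome 7 at 18827966 to 18828354 (fold 13.3) and chromosome 6 at 34793046 to 34793318 (fold 13.3).

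Among regions without macrophage H3K9Ace, those with PU.1 were on chromosome 5 at 65636133 to 65636415 (fold 11.5) and at 4601040 to 4601388 (fold 10.9), and on chromosome 15 at 34287302 to 34287568 (fold 10.3). Those with neither macrophage mark were on chromosome 15 at 3905022 to 3905253 (fold 16.4), on chromosome 6 at 119365078 to 119365243 (fold 13.5) and chromosome 3 at 22186741 to 22186977 (fold 12.1). The one on chromosome 6 at 119365078 was the region of the 12 with no adipocyte acetylation. In these 12 regions the C/EBPβ centre lay between 8 and 340 bp from the adipocyte PPARγ centre. The annotation used here is of another build than mm8, so no gene is assigned to these positions.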

How the data were processed

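Per the labels' protocols, the authors mapped reads of 36 bp to mm8 with ELAND, allowing 2 mismatches and keeping unique best matches; the peak caller's settings are not given in the labels. The deposited lists hold positions, and the final PPARγ lists also a fold (ratio) per region, per the file headers, relative to a control they do not name. The series design text says that input-bias areas were subtracted; no region of a list used here overlapped the deposited masked intervals. The adipocyte H3K9Ace list held 20 repeated rows, counted once. Which 3 datasets the combined adipocyte list joins is not stated in the labels.

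Libraries were grouped by title, and the antibody field gives the same targets; the description field names PPARγ for all 6. Chromosome ends for the 1000 circular shifts were the furthest region ends in any list. Odds ratios are sample values with exact conditional 95% intervals and 2-sided Fisher's exact tests, adjusted by Benjamini-Hochberg over 12 listed and, separately, 19 added contrasts; strata were compared by Breslow-Day chi-square tests over 7 ratios, and width quartiles by Mantel-Haenszel tests. Alternatives were stricter overlaps, the final adipocyte list, thinning to 10 kb, PU.1 within 500 bp, wider H3K9Ace regions, and leaving out chromosome 6 or macrophage PPARγ regions. Overlap counts, intervals and shifts were tested on simulated data. Software was Python 3.11.15, SciPy 1.17.1 and statsmodels 0.14.6.

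The named regions are, per class and outside chromosome 18, the 3 with the highest adipocyte fold. The regions, contrasts and lists were chosen with earlier results of these data known. BED starts are given 1-based.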

Additional observations from a re-analysis of the deposited data

Results flagged for a closer look

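In 6 cases the same contrast differed between strata of regions by the Breslow-Day chi-square test of equal odds ratios; p-values are adjusted over 7 such ratios. Of these, 4 were chosen after the files were read. Neighbouring regions are counted as independent in these tests, and width, which moves with PU.1, was not adjusted for in them.

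The PU.1 odds ratio for adipocyte H3K9Ace was 0.438 in macrophage-acetylated and 0.679 in other C/EBPβ regions, a ratio of 0.645 (Breslow-Day chi-square test, adjusted p = 3.10e-11). For adipocyte PPARγ these were 0.780 and 0.588, a ratio of 1.33 (Breslow-Day chi-square test, adjusted p = 0.00653), which missed the threshold without regions bound by PPARγ in macrophages (1.25, adjusted p = 0.0514) and with the final adipocyte list (1.51, adjusted p = 0.0787). The PU.1 odds ratio for adipocyte PPARγ was 0.997 in adipocyte-acetylated and 0.575 in other C/EBPβ regions, a ratio of 1.73 (Breslow-Day chi-square test, adjusted p = 4.82e-06), which was 3.15 with the final list.

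The odds ratio of C/EBPβ over PU.1 regions without C/EBPβ for adipocyte PPARγ was 2.11 in macrophage-acetylated and 4.00 in other regions, a ratio of 0.527 (Breslow-Day chi-square test, adjusted p = 3.14e-13). For adipocyte H3K9Ace it was 0.888 and 1.46, a ratio of 0.607 (Breslow-Day chi-square test, adjusted p = 1.65e-30). For PPARγ by adipocyte acetylation it was 2.41 in acetylated and 3.87 in other regions, a ratio of 0.623 (Breslow-Day chi-square test, adjusted p = 1.17e-05). The final list gave 4.79 (3.68 to 6.30) and 9.28 (4.71 to 20.3), a ratio of 0.516, which missed the threshold (Breslow-Day chi-square test, adjusted p = 0.0787). The 9.28 rested on 61 of 15659 C/EBPβ regions and 10 of 23731 PU.1 regions without C/EBPβ.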

How the results depend on the processing

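No paired analysis was possible because each group holds 1 library. Of 138 recomputed values of the 14 listed results, 130 kept their direction and their side of the threshold. The exceptions concern 3 results, and the cause of each was not tested. The PU.1 odds ratio for PPARγ among adipocyte-acetylated regions, 0.997, lay on the other side of 1 without chromosome 6 (1.02), after thinning to 10 kb (1.02), with H3K9Ace regions of at least 1000 bp (1.02) and with PU.1 within 500 bp (1.03), none past the threshold. It passed the threshold without macrophage PPARγ regions (0.826) and within width quartiles (0.875). With the final adipocyte list the ratio of macrophage acetylation for PPARγ was 1.15 and that of PU.1 in macrophage-acetylated regions 0.776, neither past the threshold. Over all alternatives the PU.1 odds ratio ranged from 0.611 to 0.821 for PPARγ and from 0.633 to 0.835 for H3K9Ace. Of 234 recomputed values of the added contrasts and ratios, 214 kept both, 2 turned and the other 18 crossed the threshold. Both that turned were the PU.1 ratio at regions acetylated in both cell types, 1.12, which was 0.941 without macrophage PPARγ regions and 0.963 within width quartiles, while it passed the threshold after thinning (1.23) and with PU.1 within 500 bp (1.23). In macrophages alone and adipocytes alone it passed under 5 and 4 alternatives, all below 1. Region lists without depth, signal or replicates limit every share: a region under the authors' threshold counts as unbound.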

Other observations

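Adipocyte acetylated regions that hold macrophage C/EBPβ were wider than those that do not, with medians of 2800 bp (6581 regions) and 1000 bp (43915 regions), and a wider region has more room for an overlap. Of those with C/EBPβ, 1315 held 2 or more C/EBPβ regions and one held 10. Where adipocyte PPARγ overlapped the acetylated region as well, the median width was 4000 bp (1828 regions), against 2500 bp where it did not (4753 regions). C/EBPβ lay at 25.1% of the adipocyte acetylated regions with PPARγ (24.1 to 26.1) and 11% of those without (10.7 to 11.3).

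By the width of the adipocyte acetylated region they lie in, C/EBPβ regions carried PPARγ in 15.1% of cases at 500 to 1600 bp, 18.2% at 1650 to 3200 bp, 17.3% at 3250 to 5500 bp and 20.9% above that. From the narrowest quartile to the widest, the shares were 13.1% with PU.1 and 17.3% without, 19.7% and 16.8%, 17.5% and 17.1%, and 21.4% and 20.4%. The PU.1 odds ratio passed the threshold in the narrowest quartile, at 0.720 (0.561 to 0.924, Fisher's exact test, adjusted p = 0.0331 over the 4 quartiles). In the other 3 it was 1.21, 1.03 and 1.06, with adjusted p-values of 0.180, 0.860 and 0.793 (Fisher's exact test). These contrasts were chosen after the other results were seen, and the difference between quartiles was not tested.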
